A study of Mus musculus with 15 samples.

Results

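The transcription factors that give neurons of the forebrain their identity were examined as 38 genes, chosen by name, out of the 21938 protein-coding genes that GENCODE M21 annotates on chromosomes 1 to 19, X and Y. They comprised 2 T-box, 7 bHLH, 4 zinc finger and SATB, 4 Zic, 3 Tshz, 5 nuclear receptor, 3 Mef2, 2 Cux, 2 Ebf and 4 Pou3f genes, the ETS gene Etv1 and Myt1l. H3K4me3, the trimethylated form of lysine 4 on histone H3, was profiled by ChIP-seq in amygdala nuclei of adult male mice, with 20000 nuclei per sample. The WT group consisted of 2 mice, both F1 hybrids of 129S1/SvImJ Kmt2a+/- fathers and C57BL/6J Kdm5c+/- mothers that inherited intact copies of Kmt2a and Kdm5c. Their peaks were called against a WT input and deposited as 1 list for the pair, in which each peak is reduced to the 1 bp position of its summit and a score. The score was taken to be −log10 of the MACS2 q-value, although no header says so, and the list does not give the reads behind each summit. Without separate values for each mouse, no spread between animals can be given and no comparison here carries a test. The 95% Wilson intervals below cover counting error only. The Kmt2a-HET, Kdm5c-KO and DM samples, 3 of each, were not analysed here.

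H3K4me3 is placed on nucleosomes next to transcription start sites (TSSs) that are in use or held ready for use, and it is most regular at promoters rich in CpG dinucleotides. Transcription factors of neuronal identity act in sequence: proneural bHLH factors such as Neurog2 start neuronal differentiation in progenitors, and factors such as Tbr1, Fezf2, Bcl11b and Cux2 then specify the subtype of the neuron and in many cases stay on in the adult. Genes of this kind are often kept silent by Polycomb complexes in the cells that do not use them. Because the amygdala samples mix many cell types, fewer cells carrying the mark and less of the mark per cell cannot be told apart.

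In the WT list, 31 of the 38 genes carried at least 1 summit within 1 kb of an annotated TSS, and these are called marked below. That is 81.6% (66.6 to 90.8), beside 64.7% of all protein-coding genes. With the outermost TSS of each gene alone, the shares were 57.9% and 58.2%, so the higher share of the members was not seen there. The 7 genes without a promoter summit were Eomes, Neurod4, Neurod6, Neurog1, Bcl11b, Zic1 and Pou3f2. Of these, 4 had a summit inside the gene, so that 35 of the 38 genes had a summit in the gene or at its promoter.

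The marked genes had lower scores than is usual for a marked promoter. The best promoter score per gene ranged from 11.8 to 274.6, with a median of 155.7 and quartiles of 76.4 and 185.8, whereas all 14197 marked protein-coding genes had a median of 194.6 and quartiles of 129.8 and 230.2. Of the 31 marked genes, 25 lay below the median of marked protein-coding genes and 6 above it. The highest-scoring 25% of those genes, above 230.2, included 1 of the 31, or 3.23% (0.572 to 16.2), and that gene was Mef2d. The lowest-scoring 25%, below 129.8, included 12 of the 31, or 38.7% (23.7 to 56.2), an interval that includes the background.

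**Figure D1:**
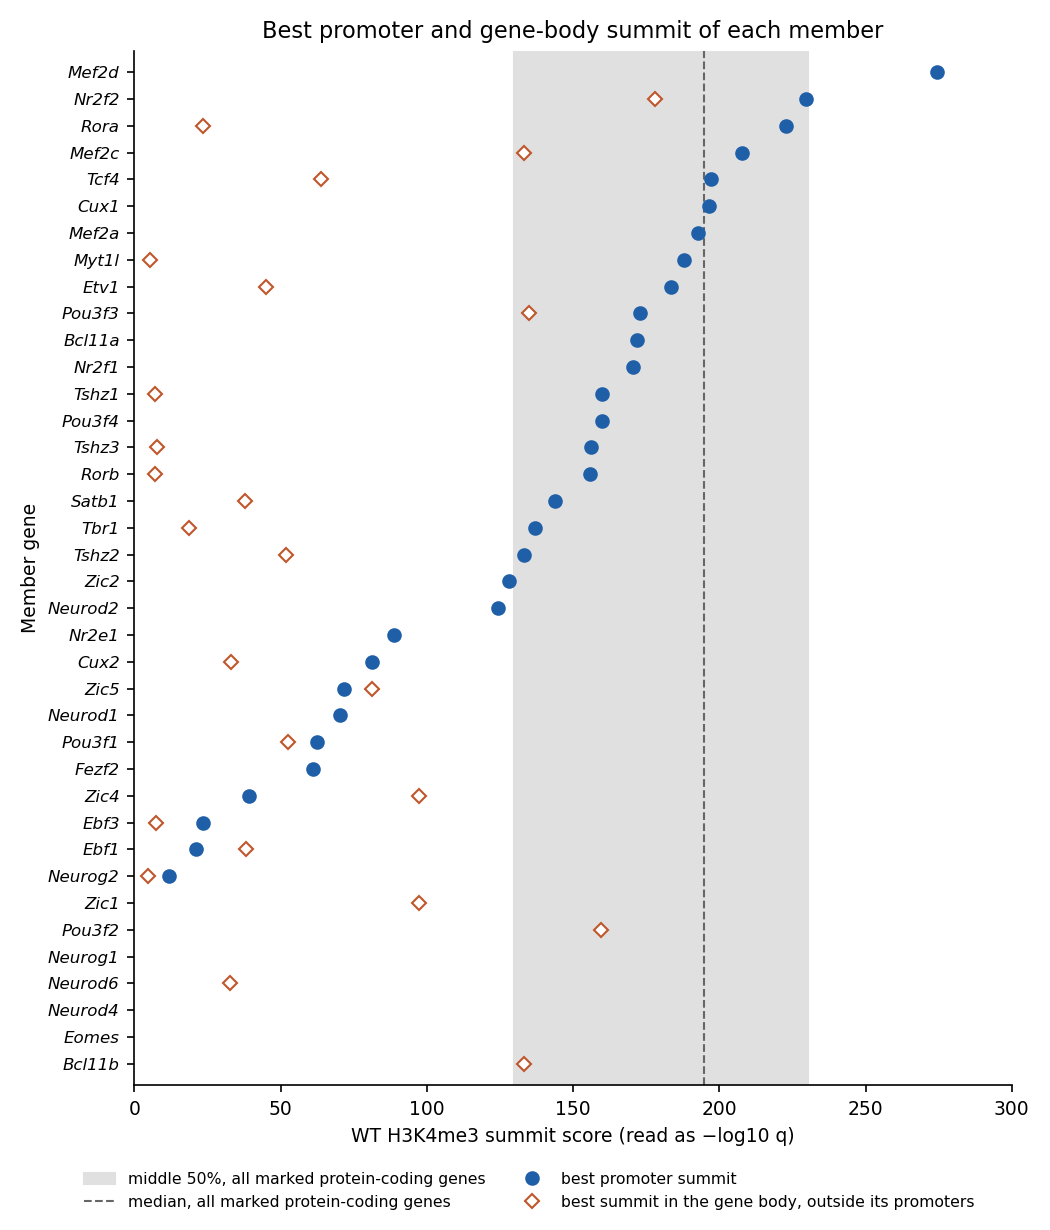
Best promoter score (blue circles) and best gene-body score (open diamonds, summits in the gene and over 1 kb from its TSSs) of each of the 38 genes, sorted by promoter score, with the score read as −log10 q on the horizontal axis. The shaded band spans 129.8 to 230.2, the middle 50% of marked protein-coding genes, and the dashed line is their median of 194.6. Only Mef2d lies to the right of the band, and the lowest 7 names have no circle.

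The position of the best summit was set beside the background as well. In 27 of the 31 marked genes it lay downstream of the nearest TSS and in 4 upstream, a downstream share of 87.1% (71.1 to 94.9) with an interval that includes the 79.3% of all marked protein-coding genes. The median was 340 bp downstream beside 171 bp for all marked protein-coding genes. With a promoter window of 500 bp, which limits the distance, the medians were 174 and 154 bp. It lay over 500 bp downstream in 11 genes, or 35.5% (21.1 to 53.1), beside 11.6% of marked protein-coding genes. It lay over 1 kb from the outermost TSS, at an internal promoter or far into the first one, in 14 genes, or 45.2% (29.2 to 62.2), beside 14.3%. These 14 genes were Tbr1, Bcl11a, Fezf2, Satb1, Zic2, Zic4, Tshz1, Rora, Nr2f1, Nr2f2, Mef2c, Mef2d, Myt1l and Ebf3. The genes closest to the 1 kb limit on the inside were Zic4, at 937 bp, Rorb, at 903 bp, and Mef2d, at 820 bp. Those closest on the outside were Zic1, at 1020 bp, Neurod6, at 1122 bp, Bcl11b, at 1174 bp, and Pou3f2, at 1320 bp.

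The genes also carried more summits each. More than 1 promoter summit was found in 16 of the 38, or 42.1% (27.9 to 57.8), beside 11.7% of protein-coding genes, with 2 summits in 11 genes, 3 in 2 genes and at least 4 in 3 genes. A gene-body summit, inside the gene and over 1 kb from all its TSSs, was found in 24 of the 38, or 63.2% (47.3 to 76.6), beside 14.7%. The members were longer than other genes, with a median of 24303 bp against 17425 bp and an upper quartile of 136465 bp against 45110 bp. The shares were therefore also taken by length, in groups within which lengths were not matched. Among the 19 members at or above that member median, 15 had a gene-body summit (78.9%, 56.7 to 91.5) beside 24.9% of protein-coding genes of that length, and among the 19 shorter ones 9 did (47.4%, 27.3 to 68.3) beside 7.51%. A summit within 10 kb of a TSS of the gene and outside the promoters of all genes was found for 29 of the 38, or 76.3% (60.8 to 87.0), beside 14.2%. Gene-body summits within that distance were included, so this share overlaps the gene-body share, and it was not taken by length.

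**Figure D2:**
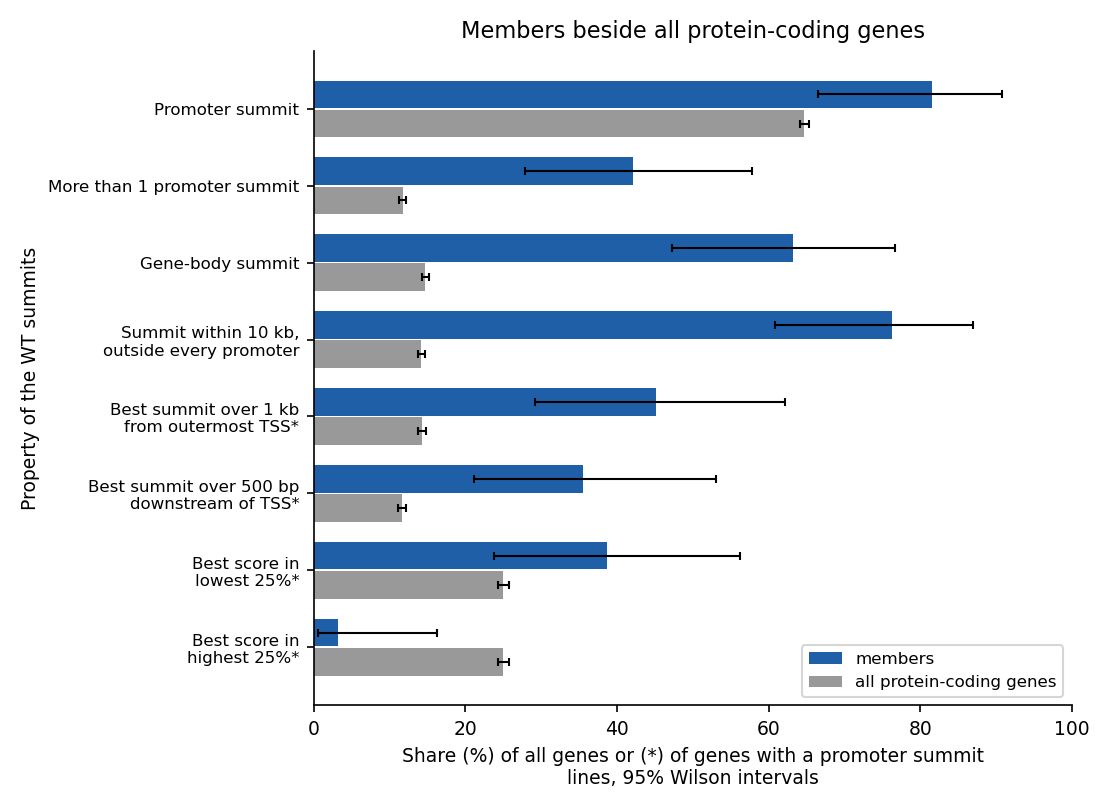
Shares of the members (blue) and of all protein-coding genes (grey) with each property of the WT summits, in percent, where an asterisk marks a share among genes with a promoter summit and the black lines are 95% Wilson intervals for counting error. The widest gap is for summits within 10 kb and outside every promoter, which include gene-body summits, 76.3% against 14.2%. For a promoter summit the shares are 81.6% and 64.7%, and for the lowest 25% of scores the interval of the members includes 25%.

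The sequence at the start of the genes was compared with the mark. The ratio of observed to expected CpG, taken over 500 bp on each side of the outermost start, was 0.6 or more in 25 of the 38 genes, or 65.8% (49.9 to 78.8), beside 46% of protein-coding genes. Of these CpG-rich genes, 20 of 25 were marked (80%, 60.9 to 91.1), beside 95.5% of CpG-rich protein-coding genes. Of the 13 with a lower ratio, 11 were marked (84.6%, 57.8 to 95.7), beside 38.5%. The ratio was taken at the outermost start, whereas the promoter summit could lie at any TSS. Of the 11, Tbr1, Fezf2, Nr2f2 and Mef2c had no summit within 1 kb of the outermost TSS. Over 250 bp on each side of their best summits, the ratios were 0.62, 0.70, 0.70 and 0.09. The CpG-rich members without a promoter summit were Eomes, Neurog1, Bcl11b, Zic1 and Pou3f2. RefSeq promoters, which run from 250 bases before to 50 after the start, were found for 34 of the 38 genes. On either strand, the GC box core GGGCGG was present in 18 of the 34 (52.9%, against 46.3% of 17492 protein-coding promoters), TATAAA in 2 (5.88% against 13.3%), those of Bcl11b and Mef2c, and the E-box CAGATG in 2 (5.88% against 14.9%), those of Myt1l and Neurod2.

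The promoters of the highest and the lowest scoring marked genes and of the 3 genes with no summit within 10 kb are printed here to show their base composition. All are RefSeq promoters on GRCm38.p6, written 5′ to 3′ along the gene, with each CG in capitals. Mef2d (chr3:88142122-88142421, plus strand) holds 24 CG, Neurog2 (chr3:127632886-127633185, plus) 10, Eomes (chr9:118477939-118478238, plus) 10, Neurod4 (chr10:130280205-130280504, minus) 4 and Neurog1 (chr13:56252131-56252430, minus) 32. Neurog1 has the most CG of the 5 and no summit, while Neurog2 and Eomes have the same number and differ in having a promoter summit. The best summits of Mef2d and Neurog2, at positions 88143394 and 127633410, lie downstream of the printed sequences. The CG counts therefore do not describe the sequence at those summits.
Mef2d: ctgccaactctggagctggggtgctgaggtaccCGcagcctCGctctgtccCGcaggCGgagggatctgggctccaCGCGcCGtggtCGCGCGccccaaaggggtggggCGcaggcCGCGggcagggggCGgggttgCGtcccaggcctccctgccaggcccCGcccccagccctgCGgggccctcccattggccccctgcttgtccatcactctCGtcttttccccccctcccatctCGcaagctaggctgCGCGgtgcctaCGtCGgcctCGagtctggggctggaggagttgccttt
Neurog2: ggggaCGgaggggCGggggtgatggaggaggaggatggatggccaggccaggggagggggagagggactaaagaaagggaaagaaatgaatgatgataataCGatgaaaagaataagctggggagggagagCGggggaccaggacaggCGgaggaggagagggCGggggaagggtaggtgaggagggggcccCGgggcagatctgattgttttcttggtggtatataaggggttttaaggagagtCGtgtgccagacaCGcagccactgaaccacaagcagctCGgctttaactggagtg
Eomes: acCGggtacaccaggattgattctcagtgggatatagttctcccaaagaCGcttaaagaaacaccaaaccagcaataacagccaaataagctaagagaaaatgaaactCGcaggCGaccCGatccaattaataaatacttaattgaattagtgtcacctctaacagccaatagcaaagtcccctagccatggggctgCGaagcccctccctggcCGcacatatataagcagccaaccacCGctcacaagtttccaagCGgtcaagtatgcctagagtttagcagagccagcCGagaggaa
Neurod4: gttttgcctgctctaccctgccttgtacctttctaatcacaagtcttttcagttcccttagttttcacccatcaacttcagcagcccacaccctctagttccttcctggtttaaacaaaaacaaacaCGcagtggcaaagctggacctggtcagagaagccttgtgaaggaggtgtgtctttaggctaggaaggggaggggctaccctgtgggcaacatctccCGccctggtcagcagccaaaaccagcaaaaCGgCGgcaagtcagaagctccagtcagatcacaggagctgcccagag
Neurog1: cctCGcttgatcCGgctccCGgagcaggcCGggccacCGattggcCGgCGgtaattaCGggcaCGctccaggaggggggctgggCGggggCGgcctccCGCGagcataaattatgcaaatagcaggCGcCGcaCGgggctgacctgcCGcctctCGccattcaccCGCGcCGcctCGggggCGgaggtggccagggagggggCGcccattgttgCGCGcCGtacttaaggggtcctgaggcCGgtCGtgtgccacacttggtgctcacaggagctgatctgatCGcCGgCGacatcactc

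The T-box genes Tbr1 and Eomes follow each other in the lineage of cortical glutamatergic neurons, Eomes in intermediate progenitors and Tbr1 in early-born neurons. They differed here. Tbr1 (chromosome 2, 61802930 to 61814114, plus strand) had a promoter summit with a score of 137.0, in an exon 600 bp downstream of an internal TSS and 2123 bp from the outermost TSS, and 3 gene-body summits of 6.29, 18.8 and 8.07 near its 3′ end. Eomes (chromosome 9, 118478212 to 118486132, plus strand) had no summit in or near the gene, and the closest in the list was 28021 bp away.

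Among the bHLH genes, 4 of 7 were marked. Tcf4, the widely expressed partner with which proneural factors form dimers, had the highest score of the group, 197.3. The differentiation factors Neurod2 and Neurod1 followed with 124.4 and 70.5, and the proneural gene Neurog2 was the lowest of all 31 marked genes with 11.8. The Neurod1 summit, 257 bp into the gene, also lay within 1 kb of a TSS of the neighbouring Cerkl, and cannot be assigned to either. At Neurog2, which is 2497 bp long, 3 weak summits covered the gene, with scores of 5.31 at 486 bp upstream, 11.8 at 275 bp downstream and 4.73 at 1282 bp downstream. Neurod6, a marker of glutamatergic projection neurons, had gene-body summits of 32.6 at 1122 bp and 4.61 at 2219 bp downstream of its TSS and none nearer. Neurog1, which acts beside Neurog2 in progenitors, and Neurod4, an early differentiation factor, had no summit within 10 kb, with distances of 43464 and 190313 bp to the closest.

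Tcf4 (chromosome 18, 69343356 to 69689079, plus strand) had the most summits of the 38 genes, 6 at promoters and 9 in the gene body. Its 58 annotated TSSs are spread over the gene, and 3 separate stretches of it scored above 100. The first promoter had 197.3 at 859 bp from the outermost TSS, and the next, which begins 2363 bp into the gene, had 81.1. Promoters further in had 34.1 at 157895 bp, 102.4 at 178987 bp and 192.8 at 250369 bp, and a further promoter summit at 255509 bp had 4.45. The innermost of the strong promoters therefore had nearly the score of the first. Between them, gene-body summits of 64.0 and 51.1 lay 227688 and 233059 bp into the gene, in introns, and the other 7 scored from 3.63 to 16.5.

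Of the zinc finger and SATB genes, Bcl11a, Satb1 and Fezf2 were marked and Bcl11b was not. Bcl11a and Bcl11b (also called Ctip1 and Ctip2) specify projection neurons of the cortex, and Bcl11b is also a marker of striatal projection neurons. Bcl11a had 1 summit, of 171.7, in an intron 766 bp downstream of an internal TSS. Bcl11b (chromosome 12, 107910403 to 108003602, minus strand) had 9 gene-body summits, all intronic. The strongest, with 133.1, lay 1174 bp from the nearest TSS, and the others, from 3.77 to 28.5, were spread from 5291 to 75013 bp into the gene. Bcl11b thus had no promoter summit, although the strongest mark in its gene scored higher than the promoter of Fezf2. Fezf2, which specifies subcerebral projection neurons, had a single summit of 61.2, in an exon 784 bp downstream of an internal TSS. Satb1, a chromatin organizer used in cortical interneurons, had summits of 44.6 and 49.2 at its first promoter, both also within 1 kb of a TSS of Gm6934, and its highest, 143.7, at an internal TSS 20620 bp into the gene.

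The Zic genes, zinc finger factors of the medial forebrain and cerebellum that lie in head-to-head pairs, had low promoter scores. Zic2 had 128.2, 675 bp downstream of an internal TSS, Zic5 had 71.7 and Zic4 had 39.3, the last also in a promoter of Gm37477. With the TSSs of protein-coding transcripts alone, Zic2 had no promoter summit and the best promoter score of Zic4 was 21.1. In Zic1, Zic4 and Zic5 the strongest summit was inside the gene and not at its promoter. Zic5 had 81.1 at 2135 bp into the gene. Zic1 and Zic4 overlap on opposite strands of chromosome 9, and share a summit with a score of 97.5, which lies in an exon of Zic1 and an intron of Zic4. It is 1020 bp from the nearest Zic1 TSS and 1661 bp from the nearest Zic4 TSS, so it counted as a gene-body summit of both, and it could not be assigned to either. Zic4 had 3 more promoter summits, of 8.17 to 21.1, along its length.

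The Tshz genes, zinc finger factors of the olfactory bulb, striatum and amygdala, of which Tshz1 is known in the intercalated cells of the amygdala, were all marked at similar scores. Tshz1 had 160.0 and a promoter summit of 47.1 behind it, Tshz3 had 156.2 and Tshz2 had 133.1. Tshz2 (chromosome 2, 169633013 to 170071816, plus strand) stood out by 8 intronic gene-body summits, reaching 369984 bp from the outermost TSS, of which the strongest scored 51.8 and the weakest 6.20. Etv1, an ETS factor known from layer 5 neurons of the cortex, had 183.5 at its first promoter, 10.3 at an internal promoter 4111 bp into the gene, and a gene-body summit of 44.9.

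All 5 nuclear receptor genes were marked, with a median best score of 170.7 that was still below the 194.6 of marked protein-coding genes. Nr2f2 (COUP-TFII) had the highest score, 229.7, followed by Rora with 222.8, Nr2f1 (COUP-TFI) with 170.7, Rorb, a layer 4 factor, with 155.7, and Nr2e1 (Tlx), a factor of neural stem cells, with 88.7. The Nr2e1 summit also lay in the promoter of its neighbour Ostm1. Rora, a factor best known from Purkinje cells and the thalamus, had promoter summits far apart along a gene of 734461 bp. At its outermost promoter the score was 151.6, 304 bp upstream of the TSS, and at an internal promoter 636461 bp into the gene it was 222.8, 565 bp downstream of the TSS there. Of its 3 gene-body summits, from 2.45 to 23.6, the weakest lay in a promoter of the antisense gene Gm15511. The 151 bases around these summits on the plus strand of GRCm38, with CG in capitals, are shown to compare the outermost promoter (chr9:68653407-68653557) with the internal one (chr9:69290172-69290322), which had the higher score and 16 CG against 5. In these 151 bases, the ratio of observed to expected CpG was 0.335 at the outermost summit and 0.877 at the internal one. Over 250 bp on each side, it was 0.800 and 0.744, with G+C shares of 61.1% and 69.1%. The higher ratio of the internal promoter was thus not seen in the wider window, where the number of CG was not compared.
Rora outermost promoter: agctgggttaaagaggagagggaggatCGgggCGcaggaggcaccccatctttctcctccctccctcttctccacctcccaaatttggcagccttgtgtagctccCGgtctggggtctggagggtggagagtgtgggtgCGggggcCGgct
Rora internal promoter: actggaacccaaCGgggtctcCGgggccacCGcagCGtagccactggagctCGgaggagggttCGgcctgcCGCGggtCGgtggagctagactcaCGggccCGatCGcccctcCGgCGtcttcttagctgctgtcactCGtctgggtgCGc

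The COUP-TF genes, which pattern cortical areas and specify interneurons of the caudal ganglionic eminence, both had strong summits next to non-coding transcripts. At Nr2f1 (chromosome 13, 78188973 to 78199757, minus strand), summits of 165.2 and 170.7 lay 133 and 1574 bp from the outermost TSS. A higher one, of 220.0, lay 3406 bp upstream, in a promoter of the antisense gene A830082K12Rik, which also has TSSs within 1 kb of both other summits. At Nr2f2 (chromosome 7, 70351944 to 70366735, minus strand), the best summit lay 7772 bp from the outermost TSS and 560 bp upstream of an internal TSS. A gene-body summit of 178.0 lay 1093 bp into the gene, in a promoter of the processed transcript B130024G19Rik. The list does not say which transcript of such a pair a summit belongs to.

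**Figure D3:**
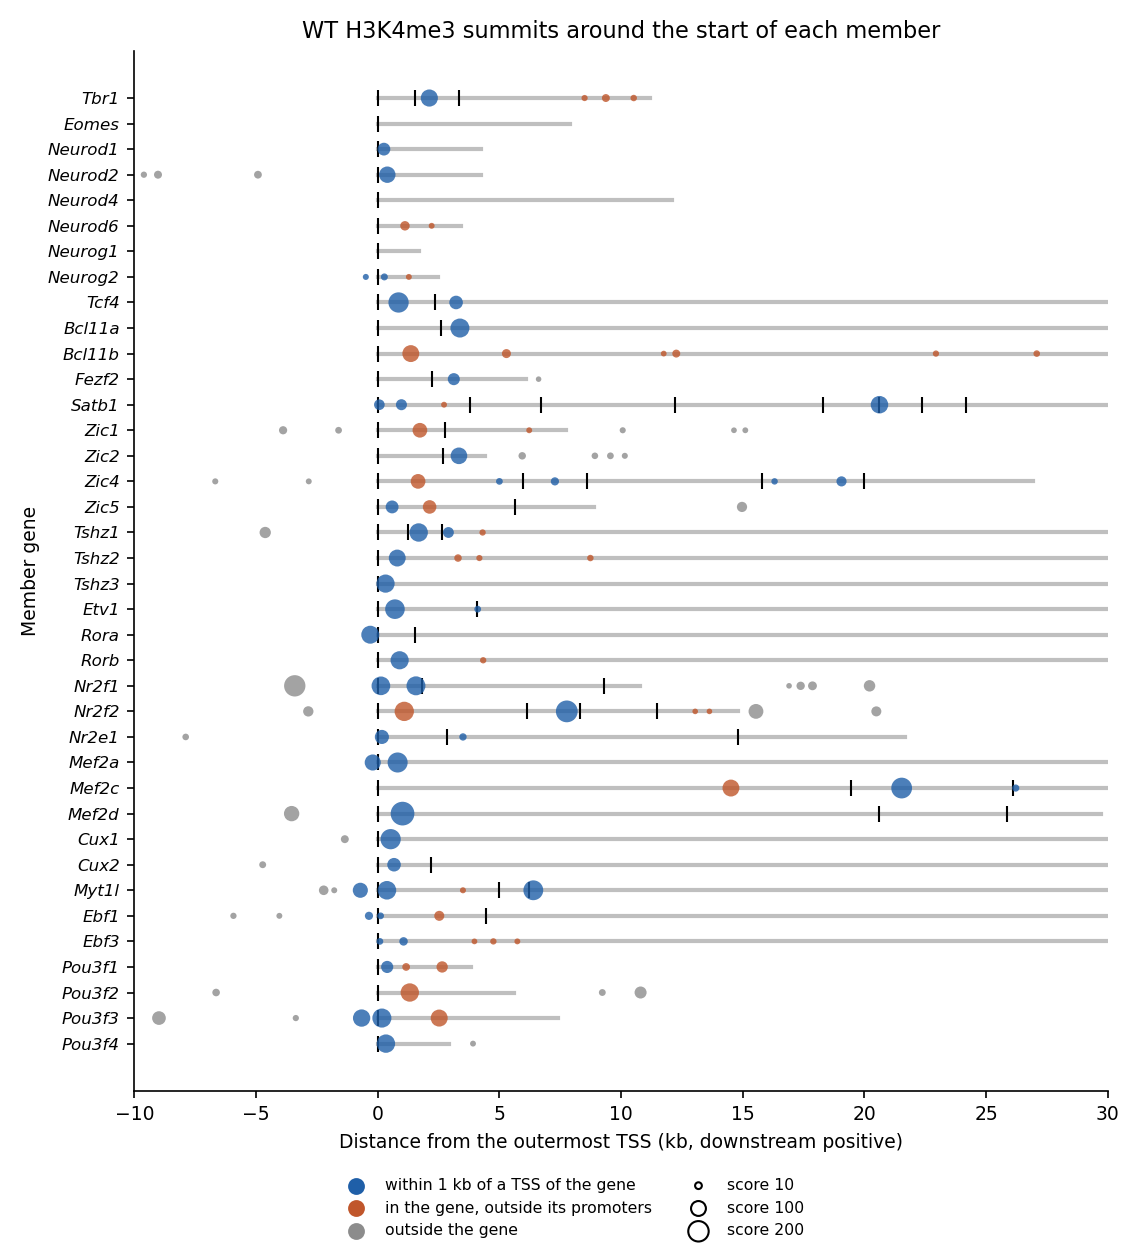
WT summits from 10 kb upstream to 30 kb downstream of the outermost TSS of each of the 38 genes, with the gene in grey, its annotated promoters as black ticks and the area of each circle growing with the score (blue, within 1 kb of a TSS of the gene, orange, elsewhere in the gene, grey, outside it). Summits beyond 30 kb are not drawn. Blue circles sit to the right of the outermost TSS in most genes, and the rows of Eomes, Neurod4 and Neurog1 are empty.

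The Mef2 genes, which regulate synapse number and activity-dependent transcription, had the highest median best score of the families here, 207.7. Mef2d had 274.6, higher than 96.7% of marked protein-coding genes, and was the only member above 230.2. Mef2c had 207.7, followed by Mef2a with 192.8 and, on the other side of its outermost TSS, 119.3. These best scores depended on the promoter window. With 500 bp, Mef2c had 13.2, Mef2a had 119.3 and Mef2d had no promoter summit. Mef2c (chromosome 13, 83504034 to 83667080, plus strand) had no summit at its outermost TSS. Its best summit was 21532 bp into the gene, 646 bp downstream of an internal TSS, and a gene-body summit of 133.1 lay in an intron 14516 bp into the gene.

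The homeodomain genes Cux1 and Cux2, both used in upper-layer cortical neurons, had different scores. Cux1, which is expressed in many tissues, had 196.5, while Cux2, the more neuronal of the pair, had 81.1 at its first promoter, 33.3 at an internal promoter 48544 bp into the gene and a strongest gene-body summit of 33.2. Myt1l, a zinc finger factor that represses non-neuronal genes in neurons, had 3 promoter summits of 103.3, 163.6 and 188.1, and the highest lay 6396 bp into the gene. That summit was also in the promoter of the processed transcript Gm20208.

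The Ebf genes were marked but weakly. Ebf1, which takes part in the differentiation of striatal neurons, had promoter summits of 21.1 and 10.1 and a stronger summit of 38.3 in an intron 2532 bp from the outermost TSS. The promoter summits were also within 1 kb of a TSS of Gm37695. When RefSeq TSSs were added, the summit of 38.3 became the best promoter summit of Ebf1. Ebf3 had 4 promoter summits of 1.94 to 23.6 and 3 gene-body summits of 3.63 to 7.38. The best score of Ebf3 was higher than only 6.78% of marked protein-coding genes, although its promoter had the highest CpG ratio of the 38 genes, 1.05.

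The Pou3f genes, POU homeodomain factors of neural progenitors and upper-layer neurons, consist of a single exon each. Pou3f3 (Brn1) had 173.0 and Pou3f4 (Brn4) had 159.8, while Pou3f1 (Oct6) had 62.3. Pou3f2 (Brn2) had no promoter summit, but a summit of 159.5 in its exon, 1320 bp from the TSS. Its score differed little from that of Pou3f4, and only the position set it apart. Summits inside the transcribed part were present in Pou3f1 as well, with 17.4 and 52.5, and in Pou3f3, with 134.9 at 2529 bp. The upstream summit of Pou3f3, of 140.1, lay in promoters of the lincRNA Pantr1 and of AC122898.1, and the promoter summit of Pou3f1 lay in that of the antisense gene Gm2164.

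**Figure D4:**
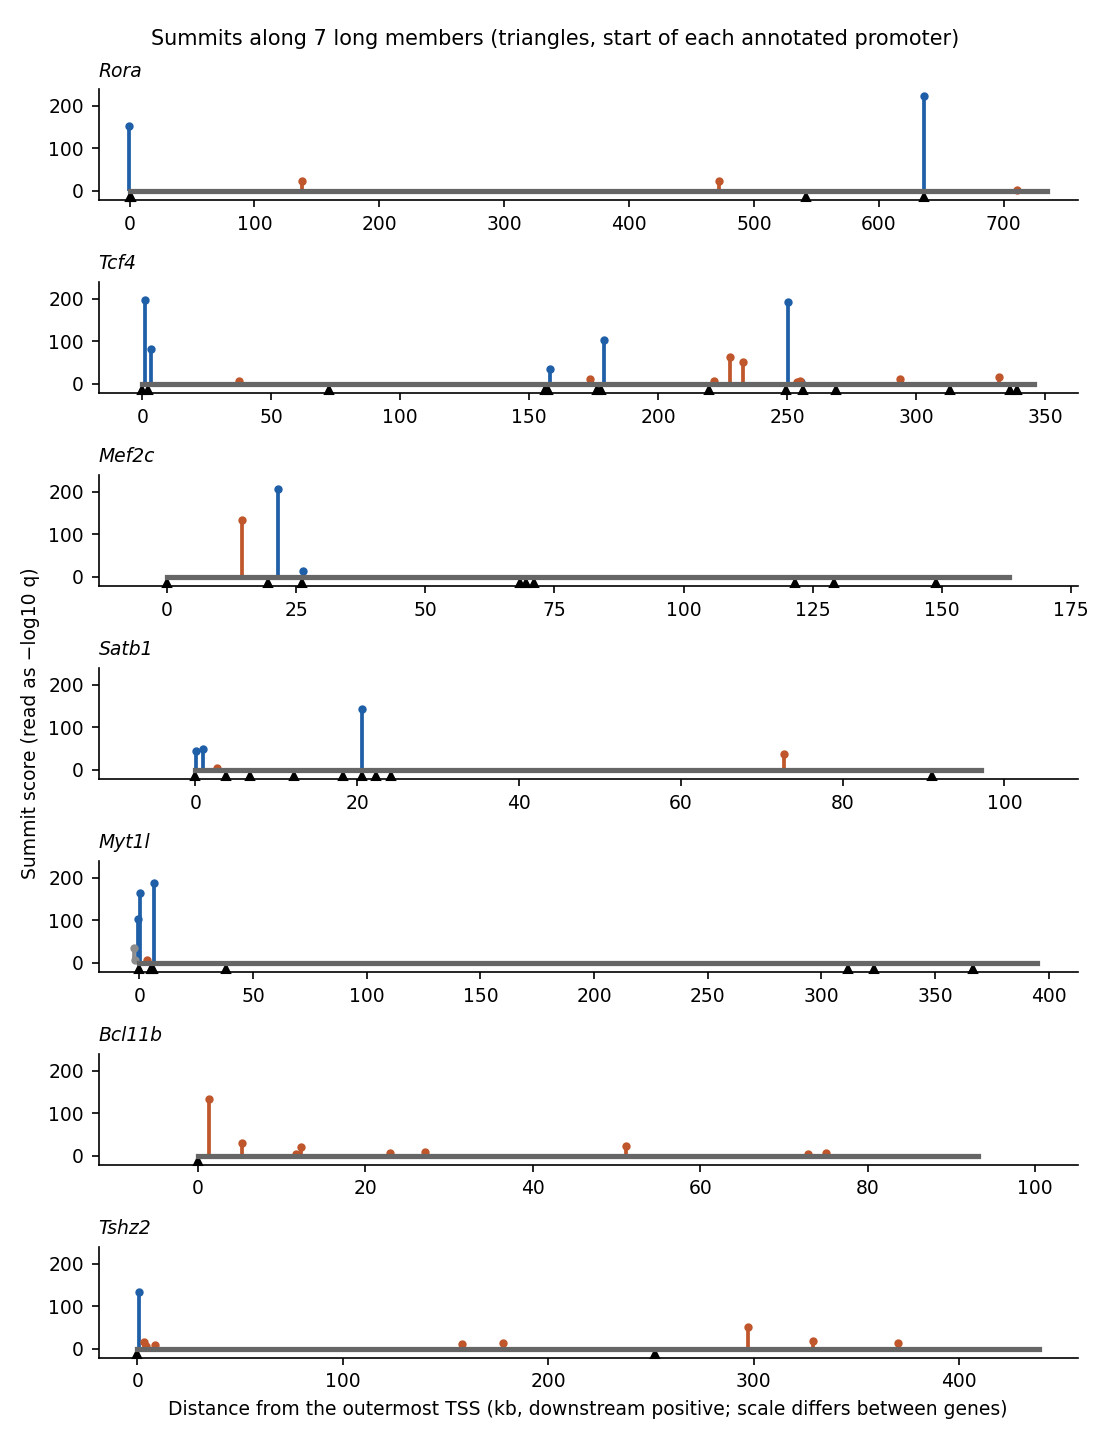
Scores of WT summits along 7 long members, Rora, Tcf4, Mef2c, Satb1, Myt1l, Bcl11b and Tshz2, against the distance from the outermost TSS in kb, with a scale of its own for each gene. Black triangles mark annotated promoters, and stems are blue within 1 kb of a TSS, orange elsewhere in the gene (grey bar) and grey outside it. Rora, Mef2c, Satb1 and Myt1l have their highest stem at an internal promoter, and Bcl11b and Tshz2 carry rows of low orange stems.

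The internal promoters of the 38 genes can be counted as well. When TSSs of a gene within 1 kb of the next were taken as 1 promoter, the members had 124 promoters, of which 49 held a summit, or 39.5% beside 33.7% of the 48607 promoters of protein-coding genes. More than 1 such promoter was annotated for 25 members, or 65.8% (49.9 to 78.8), beside 56.3% of protein-coding genes. A summit at 2 or more promoters, where 1 summit could count for neighbouring promoters, was found in 13 members, or 34.2% (21.2 to 50.1), beside 8.17%. Among genes with more than 1 promoter, these were 13 of 25 members, or 52% (33.5 to 70.0), beside 14.5%. The number of promoters per gene was not matched between members and other genes in this comparison. Over the 38 genes there were 57 promoter summits, with a median score of 102.4 and a range of 1.94 to 274.6. The gene-body summits, 60 different ones, were mostly weak, with a median of 12.1 beside 11.3 for all summits outside every promoter. Counted per gene, 46 of 61 were intronic and 15 exonic, 30 scored under 10 and 5 scored 100 or more. Those 5 were in Bcl11b, Nr2f2, Mef2c, Pou3f2 and Pou3f3. Only 11 of the 61 lay within 1.5 kb of a TSS of their gene. Of the 5 strongest, however, those of Nr2f2, Bcl11b and Pou3f2 did, at 1093, 1174 and 1320 bp. Those of Pou3f3 and Mef2c lay at 2529 and 4923 bp. In Zic4, Zic5 and Ebf1, the highest summit of a marked gene was a gene-body summit. That of Ebf1 counted as a promoter summit once RefSeq TSSs were added.

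Summits also lay around the members. Within 10 kb of a member there were 39 different summits outside all members and their promoters, with a median score of 17.7, and 12 of them were in promoters of other genes. Outside such promoters, 6 scored 50 or more. The highest was 107.4, at 3535 bp upstream of Mef2d, followed by 99.0 beyond the 3′ end of Nr2f2, 82.7 at 8986 bp upstream of Pou3f3 and 61.0 beyond the 3′ end of Pou3f2. The others were 54.0 at Nr2f1 and 52.1 at 4620 bp upstream of Tshz1. Of these 6, 5 were next to Nr2f, Mef2 and Pou3f genes.

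Relatives of the members and other developmental factors were looked up in the same way. Of 45 genes of the same families that are not members, 27 were marked, or 60% (45.5 to 73.0), with a median best score of 92.6, and 15 had a gene-body summit (33.3%). Of 63 Sox and Fox genes, 40 were marked, or 63.5% (51.1 to 74.3), with a median of 94.8, and 32 had a gene-body summit (50.8%). The intervals of both lists overlap that of the members for a promoter summit, and low scores and gene-body summits occurred in all 3. Within families, the marked T-box relatives scored from 3.05 to 40.7, all below Tbr1, while Mef2b, with 236.1, scored between Mef2c and Mef2d.

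The labelled tissue was checked on marker genes. Promoter summits were found for 4 of 5 general neuronal markers, with scores of 218.8 to 266.8, for 3 of 3 glutamatergic and 3 of 3 GABAergic markers, for 4 of 5 oligodendrocyte, 5 of 5 astrocyte and 3 of 3 endothelial markers, and for 0 of 6 markers of tissues outside the brain. The neuronal and oligodendrocyte markers without a promoter summit were Stmn2 and Olig1. Scores ran from 104.8 to 272.5 for glutamatergic, 177.3 to 199.8 for GABAergic, 81.1 to 182.9 for oligodendrocyte and 29.2 to 174.3 for astrocyte markers. Endothelial markers were low, at 15.5 to 33.8. Of all protein-coding genes 64.7% were marked, a share inside the interval of each set of 3 to 5 markers. The interval for tissues outside the brain was 0 to 39.0%. The list therefore holds promoter summits of neuronal and of glial marker genes, but sets this small do not show how much each cell type contributes. What glia contribute to the scores of the members was not tested.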

How the data were processed

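Native ChIP-seq for H3K4me3 was carried out by the authors on micrococcal nuclease digests of amygdala nuclei, with synthetic nucleosomes spiked in. Per the labels and the Methods, reads were aligned to mm10 with Bowtie, uniquely mapped reads were kept, and peaks were called with MACS2 2.1.0.20140616 against input. The deposited list pools both WT mice, and its values were read as −log10 of the q-value. The Methods also describe removal of black-listed regions, named after the count tables of a peak set common to all genotypes, and do not state whether the WT list was filtered too. No columns of other samples were left unmatched (0).

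The list held 24162 summits, of which the 24139 on the autosomes and on chromosomes X and Y were used. TSSs came from all transcripts of GENCODE M21 on GRCm38. The nearest TSS is that of the same gene, and the outermost TSS is the gene's 5′ end. Each gene was given its best summit within 1 kb of any TSS, its number of promoter summits and its gene-body summits. The same measures were made for 21938 protein-coding genes. Summits within 1 kb of TSSs of more than 1 gene counted for each. TSSs of a gene within 1 kb of the next formed 1 promoter. No test was made, because the list has no replicates. The assignment was checked on simulated summits. The members, families, markers and other lists were chosen with earlier results of these data known. All 38 members are named, together with the annotated genes whose promoters hold a promoter or gene-body summit of a member. The sequence around 1 summit is not reported here. Alternatives changed the window, the TSSs and the summits used. Python 3.11.15 was used with numpy 2.4.6, pandas 2.3.3, scipy 1.17.1, pysam 0.24.0 and matplotlib 3.10.9.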

Additional observations from a re-analysis of the deposited data

How the results depend on the processing

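With a promoter window of 500 bp, the share of members with a promoter summit was 60.5% (57.1% of protein-coding genes), 0 members were in the highest 25% of scores and 6 had their best summit over 1 kb from the outermost TSS (26.1% of the 23 marked members, 14.2% of marked protein-coding genes). This window dropped Bcl11a, Fezf2, Mef2d, Nr2f2, Rorb, Tbr1, Zic2 and Zic5. With 3 kb, the share was 92.1% (67.1%), as Bcl11b, Neurod6, Pou3f2 and Zic1 were added, and 13 members had a gene-body summit (9.52% of protein-coding genes). With the outermost TSS of each gene alone, the share was 57.9% (58.2%), 0 members were in the highest 25% and 6 had more than 1 promoter summit (4.36%). With only the summits that reached the list's median score, the share was 55.3% (52.0%), 6 members had more than 1 promoter summit (4.27%) and 5 had a gene-body summit (3.22%). The higher share of members with a promoter summit was thus not seen with the outermost TSS alone, and was small with the short window and with summits of at least the median score, while with summits scoring 10 or more the shares were 81.6% and 62.7%. The median best score stayed below that of protein-coding genes under every alternative, between 133.1 and 171.7 against 191.3 to 209.6. The alternative with RefSeq TSSs, and all those for the lowest 25% and for the distance from the outermost TSS, were chosen after seeing the data. No paired analysis was possible because the list pools both WT mice, and for the same reason no mouse could be left out. Since the list gives no reads per gene, the lack of a summit shows only that no peak passed the threshold at the depth sequenced.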
